A study of Mus musculus with 22 samples.

Results

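Slc5a5, Crb1, Smyd1, Ecel1, Alox8 and Gm42608 are 6 genes outside the triplicated chromosome 16 segment of Ts66Yah mice that were selected on their read counts, which were higher in Ts66Yah than in wild-type (wt) animals. They are described here with Dclk1, the gene whose intron holds Gm42608, which makes 7 of the 55385 genes in the count table. They were chosen by measured values of these same libraries, as genes higher in Ts66Yah, by a rule that names no region. The contrast taken here as the one that chose was that of genotypes in the hippocampus (HIP) for Slc5a5, Crb1, Smyd1, Ecel1 and Gm42608. For Alox8, and also for Gm42608, it was that in the entorhinal cortex (EC). Those contrasts are given as a description without a test. Tests are given for the rest: the other region, the regional baseline, the pair of regions of an animal, and Dclk1. The other region comes from the same animals and may have entered the choice. The regional tests reuse the libraries that chose the genes, so the choice can bear on their p-values.

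RNA-Seq was performed on both regions of 11 male mice, 5 wt and 6 Ts66Yah, aged 5 to 6 months, which gave 22 libraries. The wt animals were littermates of the Ts66Yah animals on a mixed background of C57BL/6J and a sighted C3H line. Ts66Yah mice carry a minichromosome with an additional copy of the end of mouse chromosome 16, obtained from Ts65Dn by genome editing that took away the piece of chromosome 17 near the centromere. The Ts66Yah line goes back to 1 mosaic founder, which was bred with C57BL/6NCrl females, and offspring of that cross started the colony. According to the methods, the sighted C3H line used for breeding is congenic C3H/HeN with the Pde6b allele of BALB/c. Beyond this shared background and the minichromosome no agent is named for either genotype.

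The genes belong to different pathways. Slc5a5 is the sodium-iodide symporter, a membrane protein that brings iodide into thyroid follicular cells for hormone synthesis. Crb1 encodes a Crumbs protein that organises the apical membrane and cell junctions and is best known for its role in the retina. Smyd1 is a lysine methyltransferase with SET and MYND domains, needed for sarcomere formation in heart and skeletal muscle. Ecel1 encodes a neuronal membrane metallopeptidase of the neprilysin and endothelin-converting enzyme family, induced after nerve injury. Alox8 is a lipoxygenase that adds oxygen to arachidonic acid, described mainly in skin. Dclk1 is a neuronal kinase with doublecortin domains that binds microtubules. Gm42608 is an annotated transcript without an assigned function.

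The annotation of GRCm38 gives the following places. Slc5a5 (ENSMUSG00000000792) lies on the minus strand at chr8:70882889-70892757, and Crb1 (ENSMUSG00000063681) on the minus strand at chr1:139197056-139377100. Smyd1 (ENSMUSG00000055027) lies on the minus strand at chr6:71213940-71322233, and Ecel1 (ENSMUSG00000026247) on the minus strand at chr1:87147655-87156521. Alox8 (ENSMUSG00000020891) occupies chr11:69183932-69197843 on the minus strand. Dclk1 (ENSMUSG00000027797) occupies chr3:55242364-55539068 on the plus strand. Gm42608 (ENSMUSG00000106651) is a single exon of 2018 bases at chr3:55517569-55519586, on the same strand as Dclk1.

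Gm42608 lies wholly in an intron of Dclk1 and overlaps 0 Dclk1 exons. It begins 369 bases after the end of the nearest upstream Dclk1 exon and ends 2264 bases before the next one, and 7 of the 15 annotated Dclk1 transcripts span it. Its 2018 bases have 41.3% G and C, and the longest run of A is 10 bases. This stretch is shown because reads from an unspliced Dclk1 transcript and from Gm42608 have the same sequence here, and because the sources differ on how libraries were made. The labels give selection of polyadenylated RNA on poly-T beads. The methods state that the RNA was polyA RNA and also name a kit that depletes ribosomal RNA, which keeps unspliced RNA as well. How much of the Gm42608 counts is unspliced Dclk1 RNA is not settled. The run of A is in capitals, in the GENCODE sequence of chr3:55519253-55519382, plus strand.
Gm42608, around its longest run of A: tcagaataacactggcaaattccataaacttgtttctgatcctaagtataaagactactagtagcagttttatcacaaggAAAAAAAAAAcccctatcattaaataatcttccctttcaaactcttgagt

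RefSeq promoters of GRCm38.p6, each a window of 300 bases around a start site, were matched for 6 of the 7 genes, with a pair of promoters for Dclk1. The promoters of Slc5a5 and Smyd1 are shown because these genes had the largest fold changes over both regions among the protein-coding ones. The Slc5a5 promoter, chr8:70892708-70893007 on the minus strand, has 67.0% G and C, against a median of 52.7% over 32851 promoters. The Smyd1 promoter, chr6:71262232-71262531 on the minus strand, has 52.0%. Capitals mark matches to TGTGGT or its complement ACCACA, the core that Runx factors bind.
Slc5a5 promoter: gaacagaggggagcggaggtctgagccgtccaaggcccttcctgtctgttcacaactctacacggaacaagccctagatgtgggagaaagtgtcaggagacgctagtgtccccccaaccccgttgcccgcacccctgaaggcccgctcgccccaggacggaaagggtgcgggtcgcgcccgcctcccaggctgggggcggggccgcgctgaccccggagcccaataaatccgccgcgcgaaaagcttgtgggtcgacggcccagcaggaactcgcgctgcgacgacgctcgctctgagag
Smyd1 promoter: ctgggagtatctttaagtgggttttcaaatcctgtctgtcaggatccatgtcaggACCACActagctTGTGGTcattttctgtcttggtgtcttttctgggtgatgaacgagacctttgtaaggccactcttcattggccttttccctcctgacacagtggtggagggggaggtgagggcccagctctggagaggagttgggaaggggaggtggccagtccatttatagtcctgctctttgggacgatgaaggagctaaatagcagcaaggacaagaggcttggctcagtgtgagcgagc

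The motifs searched belong to factor families with a gene in the triplicated segment. TGTGGT was found on either strand in 2 of the 7 promoters of these genes (Smyd1 and the first Dclk1 promoter) and in 16.8% of all promoters. The Ets core CCGGAA was found in 1 of 7 (the other Dclk1 promoter) and in 14.9% of all, and the Bach core TGCTGAG in 0 of 7 and in 7.84% of all. These motifs do not overlap each other in their letters, and a match is no evidence of binding.

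Libraries held 25.9 to 50.1 M counted reads (median 34.7 M). The segment genes followed the labels. Over 101 of them in HIP, the median of the log2 differences to the mean of wt lay between 0.54 and 0.61 in the Ts66Yah HIP libraries and between -0.03 and 0.04 in the wt ones, and over 93 genes between 0.53 and 0.62 in Ts66Yah EC. Hippocampal markers summed to 1125 to 1262 CPM (read counts scaled to the library total) in wt HIP and to 386 to 473 CPM in wt EC. Cortical markers summed to 188 to 207 CPM and 526 to 665 CPM. Of 7 hippocampal markers, 6 were called lower in wt EC than in wt HIP, and Wfs1 was called higher (log2 fold change 0.43, edgeR adjusted p 0.00504). Of 7 cortical markers, 6 were called higher, and Fezf2 was not called (-0.32, edgeR adjusted p 0.054). Between genotypes, 1 gene of 12 marker lists was called, Trem2, 1 of 6 microglia markers tested, lower in Ts66Yah EC (log2 fold change -0.69, edgeR adjusted p 0.0444). Over all tested genes edgeR called 109 of 18452 in HIP and 50 of 17658 in EC.

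Levels are given as CPM scaled by TMM factors over all 22 libraries, which compares libraries but not genes. In tissue, fewer cells of a type and less RNA per cell cannot be told apart. Per kilobase of annotated exon (RPKM), the order of the mean levels in wt HIP was Dclk1 (53.9 RPKM), Slc5a5 (3.62), Alox8 (2.14), Gm42608 (1.02), Ecel1 (0.394), Smyd1 (0.234) and Crb1 (0.0613). In wt EC it was Dclk1 (78.9 RPKM), Slc5a5 (6.08), Ecel1 (1.42), Alox8 (1.14), Gm42608 (0.688), Smyd1 (0.444) and Crb1 (0.232). Library ranges of neighbours in this order overlapped for Slc5a5 and Alox8 in HIP. In EC they overlapped for Ecel1 and Alox8, Gm42608 and Smyd1, and Smyd1 and Crb1. Both genes of a pair come from the same libraries, and their difference within a library was not tested. The ranges of the other neighbours were apart, and Dclk1 stood above every other gene of the group in each wt library.

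**Figure D1:**
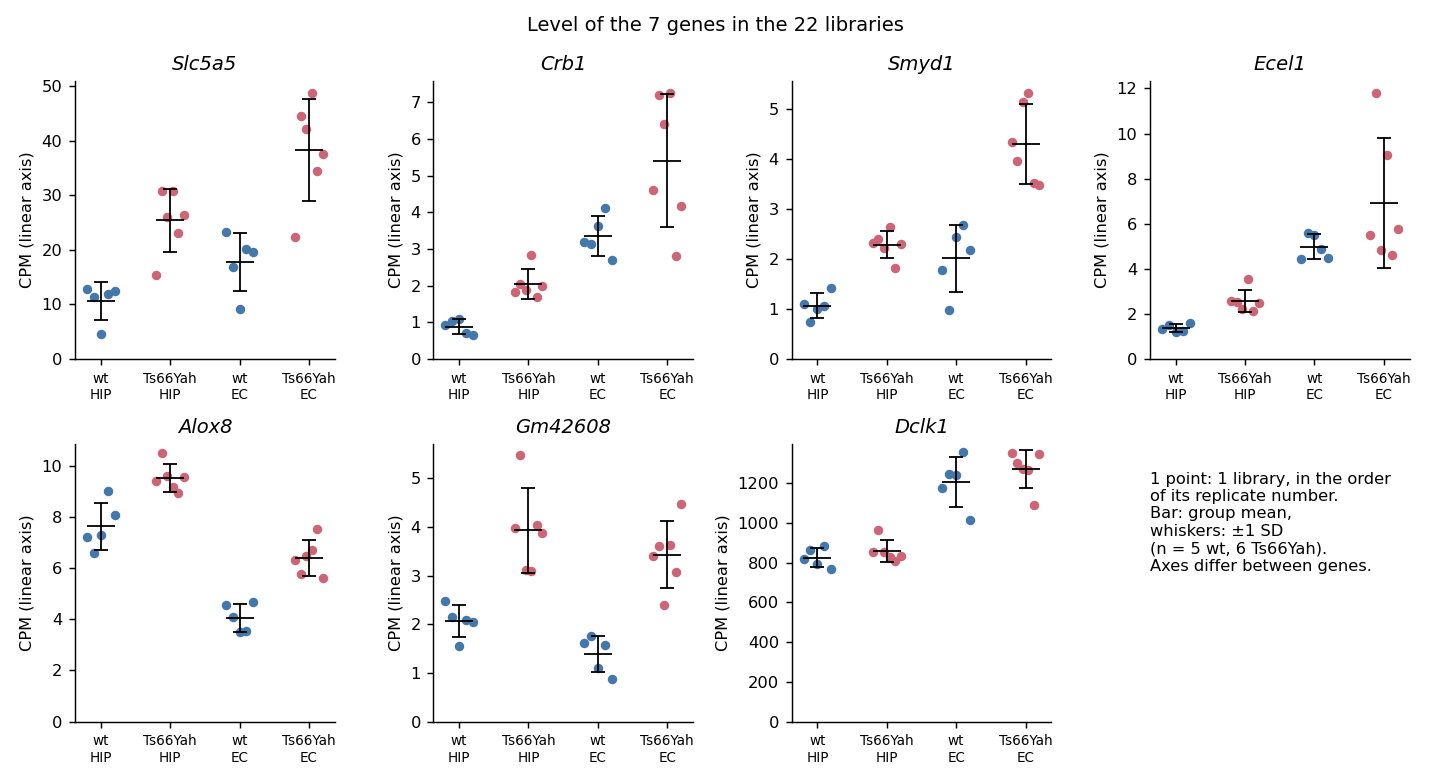
CPM (read counts scaled to the library total, linear axis from 0, a different scale for each gene) of the 7 genes in the 22 libraries; points are libraries, bars and whiskers are the group mean ± SD (n = 5 wt, 6 Ts66Yah). Slc5a5, Crb1, Smyd1, Ecel1 and Gm42608 do not overlap between genotypes in HIP, Smyd1, Alox8 and Gm42608 do not in EC, and Dclk1 overlaps in both.

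Slc5a5 had the largest difference of genotypes in HIP among these genes, and in every animal it was higher in EC than in HIP. In wt HIP its level was 12.9, 11.4, 4.54, 11.9 and 12.4 CPM in replicates 1 to 5, and in Ts66Yah HIP it had a lowest value of 15.4, a median of 26.3 and a highest value of 30.7 CPM. In wt EC it was 23.3, 16.9, 9.21, 20.1 and 19.6 CPM, and in Ts66Yah EC 22.3, 39.9 and 48.7 CPM (lowest, median, highest). Replicate 3 was the lowest wt animal and replicate 1 the lowest Ts66Yah animal in each region. In HIP, whose values are taken as the choice, the groups did not overlap. The log2 fold change was 1.27 (SE 0.24), or 1.07 without wt replicate 3. In HIP the genotypes did not overlap in either direction for 1.94% of the 18452 tested genes, and edgeR called 0.439% higher.

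In EC, 5 of the 6 Ts66Yah libraries stood above every wt library, and the lowest Ts66Yah library lay below the highest wt one. The log2 fold change was 1.10 (SE 0.23, 95% interval 0.61 to 1.59), with an unadjusted p of 0.000301 and an adjusted p of 0.0876 by edgeR's quasi-likelihood test. Thus Slc5a5 was not called in EC, where 0.272% of 17658 genes were called higher. DESeq2 gave an adjusted p of 0.000189 and edgeR without a filter 0.0108, and leaving out Ts66Yah replicate 1 gave 0.021. The EC libraries came from the same animals as the HIP libraries taken as the choice, so they are not independent animals. They may also have entered the choice, which can bear on these p-values. The 10 choroid plexus markers, all detected, summed to 116 to 3420 CPM in wt HIP and 790 to 2932 CPM in Ts66Yah HIP. In EC they summed to 12.7 to 45.3 CPM in wt and 14 to 17.7 CPM in Ts66Yah. A relation of these sums to Slc5a5 was not tested.

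Crb1 was among the lowest of the genes. In wt HIP it had 0.928, 1.05, 1.08, 0.718 and 0.645 CPM, from 19 to 54 reads per library, and in Ts66Yah HIP a lowest value of 1.69, a median of 1.94 and a highest value of 2.83 CPM. In wt EC it had 3.20, 3.13, 3.62, 4.11 and 2.69 CPM, and in Ts66Yah EC 2.80, 5.51 and 7.25 CPM. The HIP groups, taken as those that chose the gene, did not overlap, with a log2 fold change of 1.20 (SE 0.19). In EC, 5 of 6 Ts66Yah libraries lay above every wt library and replicate 5 lay within the wt range. The EC log2 fold change of 0.69 (SE 0.23, 95% interval 0.20 to 1.17) did not pass the threshold (edgeR p 0.00918, adjusted p 0.537).

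For Smyd1, HIP is taken as the region that chose the gene, and the EC libraries, from the same animals, were also fully apart. In wt HIP it had 1.10, 0.735, 1.0, 1.06 and 1.43 CPM, from 28 to 51 reads, and in Ts66Yah HIP 1.83 (lowest), 2.32 (median) and 2.64 CPM (highest). Its wt EC values were 1.79, 0.985, 2.44, 2.69 and 2.19 CPM, and in Ts66Yah EC 3.49, 4.16 and 5.34 CPM. Wt replicate 2 was the lowest library of its group in both regions. The HIP log2 fold change was 1.12 (SE 0.17), as a description. In EC no Ts66Yah library fell among the wt libraries, and such a gap, in either direction, was found for 0.900% of tested genes. That share is not the rate for a gene already chosen in HIP of the same animals. There the log2 fold change was 1.08 (SE 0.22, 95% interval 0.62 to 1.55), with an edgeR p of 0.000227 and an adjusted p of 0.0691, so it was not called. It was called by DESeq2 (adjusted p 0.000168), by edgeR without a filter (0.0285), with all 22 libraries in one fit (0.0042), and without wt replicate 4 (0.0489). Skeletal muscle markers, the tissue where Smyd1 is known, summed to 9.56 to 11.4 CPM in wt HIP and 7.67 to 12.5 CPM in Ts66Yah HIP over 9 genes, and to 14.7 to 22.3 and 12.3 to 18 CPM in EC, with overlapping ranges in both regions. Krcc1, which overlaps Smyd1 on the opposite strand without a shared exon base, had log2 fold changes of 0.10 in HIP and 0.06 in EC (edgeR adjusted p 0.669 and 0.981).

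For Ecel1 the genotypes were apart in HIP and interleaved in EC. In wt HIP it had 1.34, 1.49, 1.22, 1.25 and 1.60 CPM, and in Ts66Yah HIP a lowest value of 2.11, a median of 2.50 and a highest value of 3.53 CPM. The EC values were 4.43, 5.61, 5.50, 4.89 and 4.49 CPM in wt, and 4.6, 5.65 and 11.8 CPM in Ts66Yah. The HIP groups were apart, with a log2 fold change of 0.90 (SE 0.15), whereas in EC 3 of 6 Ts66Yah libraries lay above all wt libraries and replicates 2 and 4 carried the high values. The EC log2 fold change was 0.47 (SE 0.23, 95% interval -0.03 to 0.97, edgeR p 0.0634, adjusted p 0.825). Leaving out 1 library at a time moved it between 0.25 and 0.56, and without Ts66Yah replicate 2 it was 0.25.

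For Alox8, EC is taken as the region that chose the gene. There it had 4.54, 4.09, 3.50, 3.53 and 4.67 CPM in wt, and 5.61 (lowest), 6.38 (median) and 7.54 CPM (highest) in Ts66Yah. In wt HIP it had 7.22, 6.59, 7.30, 8.99 and 8.07 CPM, and in Ts66Yah HIP 8.91, 9.48 and 10.5 CPM. The EC groups did not overlap, with a log2 fold change of 0.65 (SE 0.12). In HIP, 5 of the 6 Ts66Yah libraries stood above every wt library. The HIP log2 fold change was 0.33 (SE 0.09, 95% interval 0.14 to 0.51), with an edgeR p of 0.00214 and an adjusted p of 0.14. DESeq2 called it (adjusted p 0.0184). In Ts66Yah HIP its coefficient of variation was 5.7%, against 19.5% for Ecel1 and 22.5% for Slc5a5.

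**Figure D2:**
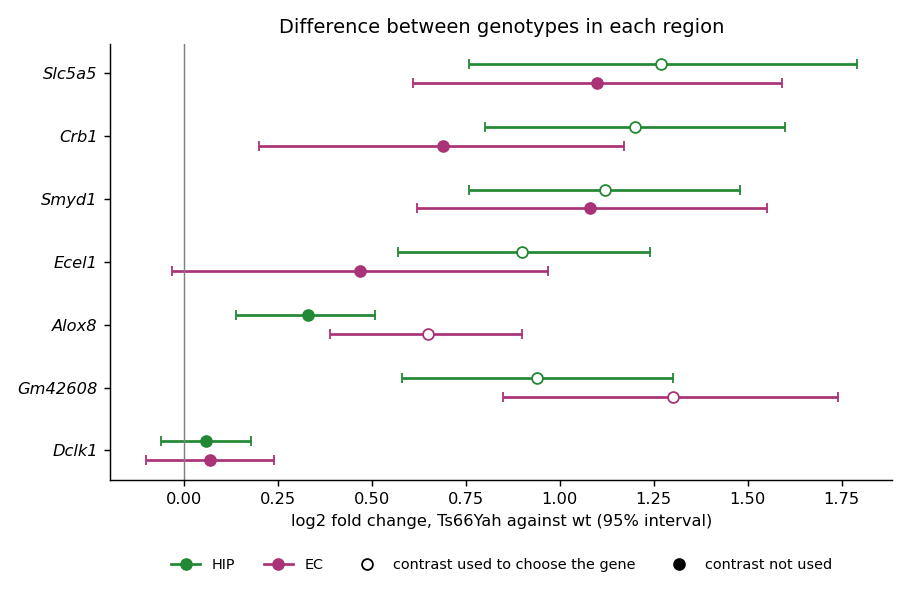
Log2 fold change of Ts66Yah against wt (x axis) with its 95% interval from edgeR for each gene in HIP and EC. Open points are the contrasts taken here as those that chose the gene. Filled points are the other contrasts, which, except for Dclk1, may also have entered the choice. Among them, the intervals of Ecel1 in EC and of Dclk1 in both regions include 0.

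Gm42608 and its host gene were read side by side. In wt HIP, Gm42608 had 2.48, 2.16, 1.56, 2.08 and 2.05 CPM and in Ts66Yah HIP a lowest value of 3.10, a median of 3.93 and a highest value of 5.48 CPM. The wt EC values were 1.61, 1.76, 1.11, 1.57 and 0.886 CPM and in Ts66Yah EC 2.39, 3.50 and 4.48 CPM. The groups did not overlap in either region, both of which chose the gene, and the log2 fold changes were 0.94 (SE 0.17) in HIP and 1.30 (SE 0.21) in EC.

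Dclk1 had 817, 865, 791, 881 and 770 CPM in wt HIP, and a lowest value of 809, a median of 841 and a highest value of 964 CPM in Ts66Yah HIP. In EC, wt libraries had 1176, 1245, 1240, 1358 and 1013 CPM, and in Ts66Yah EC 1089, 1288 and 1351 CPM. The groups overlapped in both regions, and wt replicate 5 was the lowest library of each. The log2 fold change was 0.06 in HIP (SE 0.06, 95% interval -0.06 to 0.18, edgeR adjusted p 0.727) and 0.07 in EC (SE 0.08, 95% interval -0.10 to 0.24, edgeR adjusted p 0.975). The genotype effect on Dclk1 did not differ detectably between regions (interaction 0.01, SE 0.10, edgeR p 0.93), and edgeR called 0 of 19074 genes (0%) for that interaction, with 388 at an unadjusted p under 0.05. DESeq2 and limma voom also called 0.

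Gm42608 reads were few beside those of Dclk1. For each 1000 reads of Dclk1 there were 2.50 ± 0.389 reads of Gm42608 in wt HIP (SD, n = 5) and 1.14 ± 0.255 in wt EC, and 4.57 ± 0.774 in Ts66Yah HIP (SD, n = 6) and 2.70 ± 0.481 in Ts66Yah EC. The ratio was higher in HIP in 11 of 11 animals. The mean EC minus HIP difference of the log2 ratio was -0.93 (SD 0.33), 1.91-fold in favour of HIP, with a two-sided exact sign-flip permutation p of 0.000977, the smallest that 11 animals can give. Within wt the difference was -1.14 (exact p 0.0625, the smallest possible with 5 animals) and within Ts66Yah -0.76 (exact p 0.0312, the smallest possible with 6). Reads over Gm42608 were thus not a constant share of those of its host.

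**Figure D3:**
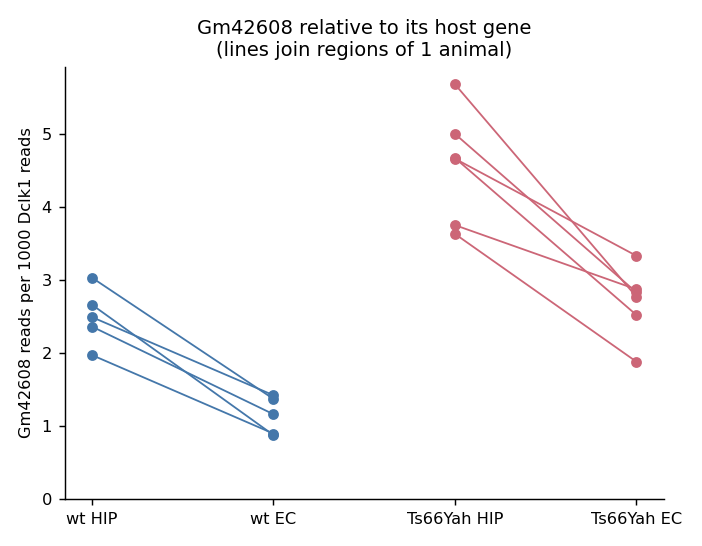
Reads of Gm42608 per 1000 reads of Dclk1 (y axis, from 0) in HIP and EC, with a line for each of the 5 wt and 6 Ts66Yah animals. All 11 lines fall from HIP to EC. Within a region the Ts66Yah range (from 3.63 in HIP and from 1.88 in EC) lies above the wt range (up to 3.03 and 1.42), a difference that the choice of Gm42608 used.

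Other transcripts annotated inside Dclk1 were nearly silent. Gm42607 and Gm19817, intronic on the same strand as Gm42608, had at most 13 and 7 reads in any library, and Gm42609 and Gm21954 on the opposite strand at most 8 and 4, and none of these was tested. Gm42608 had 30 to 166 reads per library. No stretch of Gm42608 matched another annotated transcript at 98% identity over 50 bases. Gm42609 shares 91 bases with Dclk1 at that identity. Gm42608 and Dclk1 lie on the same strand, so reads of Gm42608 and of the Dclk1 intron cannot be told apart in these counts. The counts can include unspliced Dclk1 RNA of this stretch.

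All 7 genes differed between regions in wt. In the 10 wt libraries, EC was higher than HIP for Slc5a5 (log2 fold change 0.77, edgeR adjusted p 0.0388), Crb1 (1.92, adjusted p 2.72e-06 by edgeR), Smyd1 (0.95, edgeR adjusted p 0.00889), Ecel1 (1.87, edgeR adjusted p 2.11e-07) and Dclk1 (0.57, edgeR adjusted p 7.71e-05). EC was lower for Alox8 (-0.89, edgeR adjusted p 7.57e-05) and Gm42608 (-0.55, edgeR adjusted p 0.0466). All 7 genes thus passed the threshold, 5 higher and 2 lower in EC. Of the 17935 tested genes, 23.4% were called higher and 24.3% lower, so that a regional difference was common. Except for Dclk1, these wt libraries include those that chose the gene. The choice favoured low wt values there, so these p-values are not independent of it. The direction was the same in every animal for Slc5a5, Crb1, Smyd1, Ecel1 and Dclk1, with EC higher in 11 of 11, and for Alox8, with HIP higher in 11 of 11.

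In the fit that does not pair the regions of an animal, a wt call was lost for 3 genes when 1 animal was left out. That of Slc5a5 was lost without any 1 of replicates 1, 2, 4 and 5 (adjusted p up to 0.0934), that of Smyd1 without replicate 3 (0.0517), and that of Gm42608 without any 1 of the 5 (up to 0.134). The log2 fold changes then lay between 0.74 and 0.82 for Slc5a5, 0.82 and 1.05 for Smyd1, and -0.63 and -0.42 for Gm42608, and EC was higher in 5 of 5 wt animals for Slc5a5 and Smyd1. With the animal as a block over all 5 the edgeR adjusted p was 2.23e-05 for Slc5a5, 0.0019 for Smyd1 and 0.0158 for Gm42608. In the 12 Ts66Yah libraries, where 26.4% of 18043 genes were called higher in EC and 27.5% lower, the regional difference passed the threshold for Slc5a5 (0.59, edgeR adjusted p 0.0134), Crb1 (1.40, edgeR adjusted p 7.6e-05), Smyd1 (0.91, edgeR adjusted p 3.92e-05), Ecel1 (1.43, edgeR adjusted p 0.000116), Alox8 (-0.57, edgeR adjusted p 3.65e-05) and Dclk1 (0.57, edgeR adjusted p 1.42e-06). It did not pass for Gm42608 (-0.19, edgeR adjusted p 0.349), which was higher in HIP in 5 of 5 wt and 4 of 6 Ts66Yah animals. Markers of other cells moved with region as well: the 5 oligodendrocyte markers had a median log2 difference of -2.11 and the 10 choroid plexus markers of -4.88 in wt, all called lower in EC. Their part in the regional differences of these genes was not tested.

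Whether the 2 regions of an animal moved together was asked in the 6 Ts66Yah animals, and no correlation was computed over the 5 wt animals. Slc5a5 levels in HIP and EC went together, with r = 0.98 (two-sided exact permutation p 0.00417, 0.0292 after Benjamini-Hochberg adjustment over the 7 genes) and rho = 0.94 (exact p 0.0167, adjusted 0.117). Without the 2 animals farthest from the median r was 0.88. Ts66Yah replicate 1 was lowest and replicate 4 highest in both regions. Without replicate 1, r was 0.91 (exact permutation p 0.0583), and the other leave-one-out values lay between 0.98 and 0.99. In wt, the animal lowest in HIP, replicate 3, was also lowest in EC.

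The other genes gave no correlation past the threshold. Crb1 had r = 0.68 (exact permutation p 0.124), Ecel1 0.63 (exact permutation p 0.16) and Smyd1 0.59 (exact permutation p 0.225). For Alox8 r was -0.77 (exact permutation p 0.0736), a negative value that missed the threshold. For Gm42608 r was 0.36 (exact permutation p 0.485) and for Dclk1 0.39 (exact permutation p 0.326). Without the 2 animals farthest from the median the sign of r turned for Smyd1 (-0.53). Single animals moved some values by over 1.5 times. For Ecel1 r was 0.99 without Ts66Yah replicate 2 (exact permutation p 0.0167, adjusted 0.0583), and for Smyd1 it was 0.35 without replicate 4 and 0.37 without replicate 5. For Gm42608 r was -0.10 without replicate 3, and for Dclk1 0.74 without replicate 2 and -0.05 without replicate 5.

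**Figure D4:**
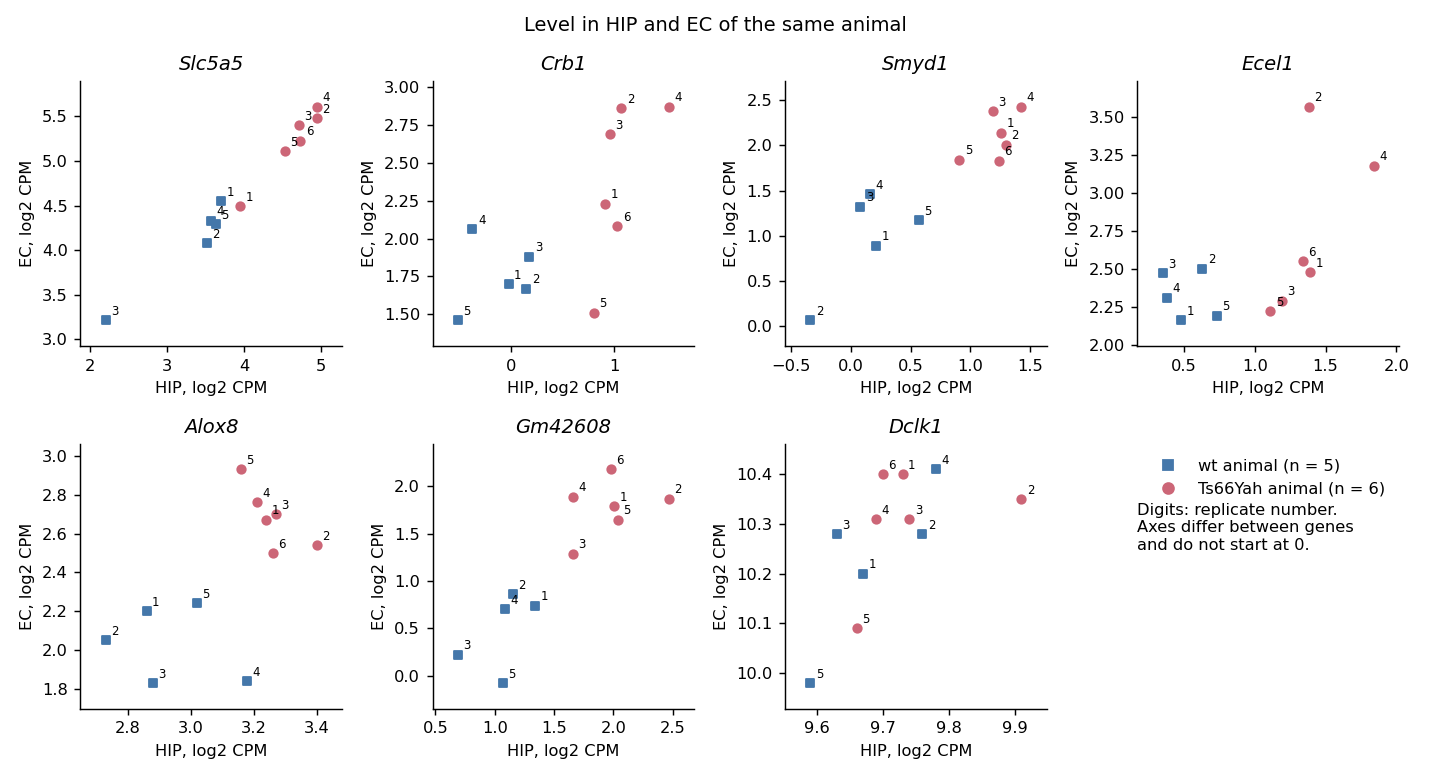
Level in HIP (x axis) and EC (y axis) of the same animal, both as log2 CPM, for each gene; squares are wt animals, circles Ts66Yah animals, digits the replicate number. The 6 Ts66Yah animals follow a line for Slc5a5 (r = 0.98), and the smallest HIP and EC levels of Slc5a5 belong to wt replicate 3.

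Members were then compared with each other across Ts66Yah animals, in 42 pairs over both regions. None passed after adjustment (smallest adjusted exact permutation p 0.292), and 3 had an unadjusted p under 0.05. These were Crb1 with Ecel1 in HIP (r = 0.95), Alox8 with Dclk1 in HIP (r = 0.96) and Alox8 with Dclk1 in EC (r = -0.86), and the last pair thus changed its sign between regions. Without the 2 animals farthest from the median in Crb1, its r with Ecel1 was 0.20. Over all 22 libraries, centred on the 4 group means, Crb1 and Ecel1 had r = 0.61, Gm42608 and Dclk1 0.57, and Crb1 and Alox8 -0.51, which is a description, since the 22 libraries come from 11 animals. Slc5a5 had no r beyond 0.30 with another gene of the group.

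The genes with the most similar pattern were found by r of centred log2 CPM over 22 libraries, among the 14925 genes tested in both regions that averaged 1 CPM or more. For Slc5a5 they were Scoc (r = 0.94), Heatr3 (0.82) and Cdh15 (0.80), all on chromosome 8. Of the 50 genes most like Slc5a5, 11 (22%) lay on its own chromosome, where 5.14% of all compared genes lie, and they lay between 66.9 and 123 Mb. The same share was 14% for Smyd1 (all genes 5%), 10% for Alox8 (7.81%), 8% for Ecel1 (6.07%), 8% for Gm42608 (5.02%), 6% for Dclk1 (5.02%) and 2% for Crb1 (6.07%). These shares carry no test. The genes most like Crb1 were Cdh1 (r = 0.87), Apaf1 (0.86) and Ptgfr (0.86), and those most like Smyd1 were Cdh4 (0.86), Neurl1a (0.85) and Tpbgl (0.84). For Ecel1 they were Timp2 (0.79), Dlk1 (0.78) and Ttpal (0.74), for Alox8 Slc2a9 (0.79), Psmb10 (0.76) and Scarf1 (0.76), for Gm42608 Zfpm2 (0.84), Mrs2 (0.82) and P2rx6 (0.80), and for Dclk1 Reps2 (0.91), Gdap1 (0.90) and Pafah1b1 (0.89). None of these 18 genes was called between genotypes in either region. By rank correlation Scoc had rho = 0.66, and 0 of the 3 genes named for Slc5a5 stayed among the 10 most similar genes.

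Scoc, which encodes a short coiled-coil protein of the Golgi, was set apart in the same 2 animals as Slc5a5. It lies at chr8:83430084-83458391. In wt HIP it had 31.3, 32.1, 12.6, 32.5 and 30.5 CPM, and in wt EC 36.7, 35.9, 15.3, 42.8 and 34 CPM. In Ts66Yah HIP it had 34.4 CPM in replicate 1 and 51.4 to 57.0 CPM in the other 5, and in Ts66Yah EC 41.0 CPM in replicate 1 and 54.6 to 73.6 CPM in the others. Wt replicate 3 was at the bottom of wt and Ts66Yah replicate 1 at the bottom of Ts66Yah in both regions, as for Slc5a5. The order of the other animals differed, and in Ts66Yah the highest was replicate 2 for Scoc and replicate 4 for Slc5a5 in both regions. Its log2 fold change was 0.90 in HIP (SE 0.21, edgeR adjusted p 0.0865) and 0.88 in EC (SE 0.22, edgeR adjusted p 0.241), so it was not called.

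**Figure D5:**
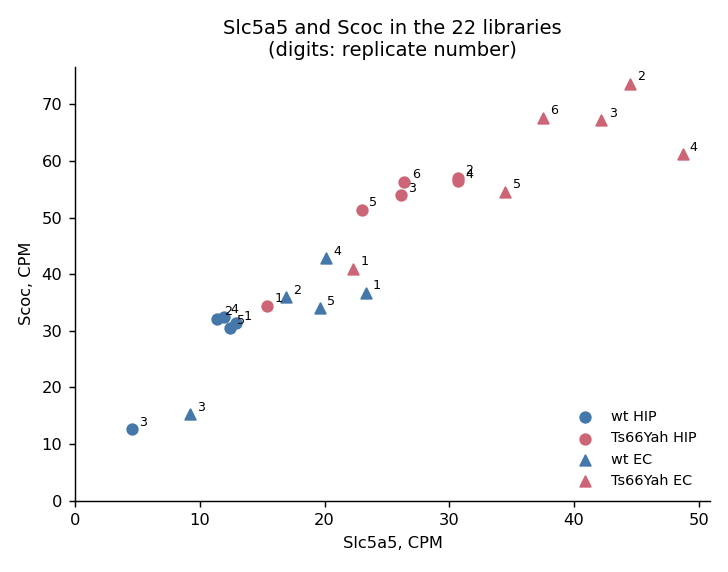
CPM of Slc5a5 (x axis) and Scoc (y axis) in the 22 libraries, both axes from 0; circles are HIP, triangles EC, digits the replicate number within a genotype. The wt replicate 3 libraries (4.54 and 9.21 CPM of Slc5a5) lie alone at the lower left, and the Ts66Yah replicate 1 libraries lie nearest to the wt animals.

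Tested genes within 500 kb of each gene were also read, beside 109 of 18452 genes called in HIP and 50 of 17658 in EC over all tested genes. Of 36 such genes near Slc5a5 in HIP, 0 were called by edgeR and 14 had an unadjusted p under 0.05, where 2188 of all 18452 did. Their log2 fold changes had a median of -0.12 and ran from -0.89 to 1.51, and 11 were positive. In EC, 4 of 33 had an unadjusted p under 0.05, where 1103 of all 17658 did. Near Alox8, 0 of 43 genes were called in HIP and 0 of 40 in EC. Alox12b, a lipoxygenase of the skin barrier that lies 14.1 kb from Alox8, had values on the opposite side, with log2 fold changes of -0.37 in HIP and -0.54 in EC (edgeR adjusted p 0.14 and 0.105). Near Crb1, Smyd1 and Ecel1 no gene was called in either region. Of the genes near Dclk1, Gm42608 was itself chosen on these contrasts.

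Of the pathway partners, 1 gene was called. Over all tested genes edgeR called 109 of 18452 in HIP and 50 of 17658 in EC, so 0 calls in lists this short are near that share. For iodide and thyroid hormone handling, 0 of 13 tested genes were called in HIP and 0 of 10 in EC, with medians of 0.00 and 0.06, beside medians of 0.00 and -0.004 over all tested genes. Thyroglobulin (Tg) and the thyroid factors Pax8 and Foxe1 had too few reads to be tested. Slco1c1, a thyroid hormone transporter of brain capillaries, had log2 fold changes of 0.23 and 0.25 (edgeR adjusted p 0.276 and 0.491). Of the SLC5 relatives, 0 of 3 were called in EC and 1 of 5 in HIP, Slc5a3, a myo-inositol transporter inside the triplicated segment, at 0.59 (SE 0.09, edgeR adjusted p 0.00568), with 0.54 in EC (edgeR adjusted p 0.0603).

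Among the Crumbs and Par polarity genes 0 of 20 were called in HIP and 0 of 19 in EC. Crb2, the relative of Crb1, had log2 fold changes of -0.20 and -0.43 (edgeR adjusted p 0.644 and 0.468). Of the SMYD relatives and muscle partners of Smyd1, 0 of 11 were called in each region, with medians of 0.05 and -0.03. Of the metallopeptidases related to Ecel1 0 of 5 were called in each region, of the lipoxygenases and leukotriene enzymes 0 of 9, and of the doublecortin family 0 of 4. Dclk2, the closest relative of Dclk1 in this list, had -0.08 in HIP and -0.02 in EC (edgeR adjusted p 0.48 and 0.991).

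The animal numbers of the labels fall into a lower and a higher range, with wt replicate 1 in neither. Within these ranges the Ts66Yah minus wt difference of mean log2 CPM in HIP was 1.77 and 1.03 for Slc5a5, 1.20 and 0.93 for Smyd1, and 1.09 and 0.87 for Gm42608. In EC it was 1.52 and 0.93 for Slc5a5, 1.15 and 0.93 for Smyd1, and 1.37 and 1.40 for Gm42608. Crb1 had 0.75 and 1.56 in HIP but 0.02 and 0.90 in EC, and Ecel1 had 0.73 and 0.90 in HIP but -0.11 and 0.63 in EC. Alox8 had 0.41 and 0.18 in HIP and 0.77 and 0.63 in EC. The lower range, given first, holds 2 wt and 2 Ts66Yah animals and the other 2 wt and 4 Ts66Yah animals, so these are values without a test.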

How the data were processed

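RNA-Seq of HIP and EC was analysed in 22 libraries of 11 mice, grouped by the sample labels. The authors mapped single-end reads with Hisat2 to GRCm38 and counted reads per gene with HTSeq-count, and these raw counts are the deposited values; bcl2fastq 2.17.1.14 is in the submitters' processing notes, and the strand setting is not given in the sources used here. The labels describe poly(A) selection, and the methods name both polyA RNA and ribosomal RNA depletion, which keeps unspliced RNA. It is thus not settled how far counts of the intronic Gm42608 include unspliced Dclk1 RNA. Deposited tables of the authors' own comparisons (fold changes and p-values) were not used. The number of unmapped columns was 0. Symbols came from GENCODE M21 (55144 of 55385 identifiers matched).

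Counts were tested in edgeR 4.0.16 (R 4.3.3) with TMM, filterByExpr and the quasi-likelihood test, Benjamini-Hochberg adjustment over all tested genes and a threshold of 0.05, per region for genotype and per genotype for region. Log2 CPM used a prior count of 2. The code was tested on simulated counts. The alternatives were DESeq2 1.42.0, limma voom 3.58.1, RLE factors, other filters (none, or 1 CPM in 5 libraries), 22 libraries in one fit, blocks, and leaving out single libraries. Genes named as most similar are the 3 with the highest r, neighbours lie within 500 kb, and of each pathway list at most 4 called genes are named. The genes, lists and tests were chosen with earlier results of these data known.

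HIP and EC libraries of an animal were paired by the animal number in the labels, and deviations from the group means correlated at r = 0.215 to 0.538 within animals. P-values measure the spread between these mice.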

Additional observations from a re-analysis of the deposited data

Results flagged for a closer look

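In each group of 5 or 6 libraries of the 7 genes (28 groups), the highest and the lowest library were compared with the rest by Dixon's ratio, the gap to the nearest library over the range of the group. It exceeded the 95% critical value in 5 of 28 groups, and chance flags about 1 in 20 groups. Slc5a5 had 4.54 CPM in wt HIP replicate 3, with a ratio of 0.821. This animal was also the lowest of wt in EC. Crb1 had 2.83 CPM and Ecel1 3.53 CPM in Ts66Yah HIP replicate 4, with ratios of 0.684 and 0.676, so that the same library stood highest for both genes. Dclk1 had 964 CPM in Ts66Yah HIP replicate 2 (ratio 0.703) and 1089 CPM in Ts66Yah EC replicate 5 (ratio 0.679). Without wt replicate 3 the HIP log2 fold change of Slc5a5 was 1.07 in place of 1.27.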

How the results depend on the processing

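Of the values for these 7 genes recomputed under the alternatives, 484 kept their direction and their side of the threshold, or moved by less than 1 standard error where no test applied. Of the others, 18 lost a call, 8 gained a call, 6 changed sign and 1, the genes most like Slc5a5, moved. In the region not taken as the one that chose the gene, which may still have entered the choice, DESeq2 called 3 genes. These were Slc5a5 in EC (1.10), Smyd1 in EC (1.09) and Alox8 in HIP (0.33). In EC, edgeR without a filter called Slc5a5 (1.10) and Smyd1 (1.09), and 22 libraries in one fit called Smyd1 (1.08). The main test called none of them. Leaving out 1 library moved Slc5a5 EC between 0.94 and 1.23 and Smyd1 EC between 0.91 and 1.22, with calls without Ts66Yah replicate 1 and without wt replicate 4 respectively. The regional difference in wt was not called for Slc5a5 by DESeq2 (0.78) or for Gm42608 without a filter (-0.55). With 1 animal left out it ran from 0.74 to 0.82 for Slc5a5, from 0.82 to 1.05 for Smyd1 and from -0.63 to -0.42 for Gm42608. The Dclk1 interaction ran from -0.03 to 0.04, and the HIP to EC r from 0.91 to 0.99 for Slc5a5, from 0.55 to 0.78 for Crb1, from 0.35 to 0.74 for Smyd1, from 0.52 to 0.99 for Ecel1, from -0.91 to -0.62 for Alox8, from -0.10 to 0.53 for Gm42608 and from -0.05 to 0.74 for Dclk1. The call of the Slc5a5 correlation was lost in each of the 6 sets of 5 animals (adjusted exact permutation p 0.0583 to 0.35), which allow fewer pairings. With 5 animals, 0.0583 is the lowest adjusted p that 1 of the 7 genes can reach alone. These losses, which are among the 18, were thus open to no other outcome for Slc5a5 alone. By Spearman's rho 0 of the 3 genes most like Slc5a5 stayed within the 10 highest. Apart from the construction of these alternatives, the cause was not tested.

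With the replicate number as a block the genotype effects were 1.12 for Slc5a5, 0.69 for Crb1, 1.18 for Smyd1 and 0.42 for Ecel1 in EC, and 0.33 for Alox8 in HIP, and no call changed. Same-numbered wt and Ts66Yah libraries correlated at r = 0.0191 to 0.0663 in HIP and 0.0175 to 0.198 in EC. Libraries with different numbers were not compared, so whether the number stands for a shared step was not tested. The animal block of the regional tests changed no call. Over all genes, the main test called 109 in HIP and 50 in EC. DESeq2 called 370 and 108, the replicate block 61 in HIP, the animal-number block 68 in HIP, and one fit of all libraries 79 in EC. With 19 to 54 reads of Crb1 in wt HIP, counting error adds to the spread of the lowest genes.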
